A study of Mus musculus with 10 samples.

Results

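Autophagy is the process by which a double membrane closes around cytoplasm or organelles and delivers them to the lysosome. A kinase complex starts it, a lipid kinase complex marks the forming membrane, a ubiquitin-like conjugation system attaches ATG8 proteins to that membrane, and receptors bind cargo to the ATG8 proteins. The transcription factor p53 is known to activate several autophagy genes in other cells, Dram1 among them. The 44 autophagy genes described here, of 49671 genes listed in the count table, were chosen by symbol: the Atg genes, Ulk1 to Ulk4, the ATG8 genes, the Beclin and class III PI3 kinase subunits, Wipi1 and Wipi2, Vmp1, cargo and mitophagy receptors, the Dram genes, Tfeb and Tfe3. Of the 44, 43 had enough counts to be tested and Dram1 did not.

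RNA was measured in neural crest cells sorted from single mouse embryos of embryonic day 10.5, with 1 library per embryo and 5 embryos per genotype. The p53_activated embryos carried Wnt1Cre, 1 normal Trp53 allele beside the engineered Trp53 LSL-25,26 allele, and the R26mTmG reporter. The control embryos were littermates with Wnt1Cre, the same reporter and Trp53+/+, so Cre and reporter were present in both groups. The strain of every embryo was a 129/Sv and C57BL/6 mixture. The engineered allele is silent until Cre removes its stop cassette, and its product is known to escape the ubiquitin ligase Mdm2 and to be a weak activator of most targets by itself. Wnt1-Cre acts in the dorsal neural tube, so the sorted green cells can include neural tube cells.

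Library totals were 14644162 to 28379562 counts in the p53_activated group and 12368058 to 23514828 in the control group. Levels are given in CPM, a gene's count relative to its library total after TMM scaling, with the SD over 5 embryos. Trp53 itself was at 28.8, 27.7, 28.5, 34.1 and 26.2 CPM in p53_activated embryos and at 12.3, 16.3, 15.5, 22.6 and 24.6 CPM in control embryos (log2 fold change 0.67 ± 0.17 SE, edgeR quasi-likelihood adjusted p = 0.0264), and the groups did not overlap. That call was lost without p53_activated replicate 4 (0.0558), control replicate 2 (0.0716) or control replicate 3 (0.0569). The p53 target Cdkn1a averaged 105 ± 11.9 CPM in p53_activated embryos and 7.93 ± 1.59 CPM in control embryos, and Mdm2 47.3 ± 4.41 CPM in p53_activated and 24.5 ± 1.06 CPM in control embryos. Summed neural crest markers ran from 278 to 336 CPM in p53_activated and from 274 to 350 CPM in control libraries, and 0 of the 8 genes was called by edgeR. Neural tube markers summed to 89.9 to 109 CPM in p53_activated and 57.2 to 109 CPM in control libraries. Control replicate 3 was at 109 CPM, and the other control libraries, at 57.2 to 82.7 CPM, lay below every p53_activated library. Of the 6 genes 5 had estimates above 0 (median log2 fold change 0.31), and 0 were called. Erythroid markers summed to 502 to 6020 CPM in p53_activated and 829 to 4490 CPM in control libraries, again with 0 called. The epithelial sums were 41.0 to 120 CPM in p53_activated and 73.8 to 176 CPM in control libraries, the muscle sums 17 to 39.3 CPM in p53_activated and 30.6 to 61.6 CPM in control libraries. Macrophage sums reached 48.8 CPM in p53_activated and 63.5 CPM in control libraries, and endothelial sums 18.2 CPM in p53_activated and 24.4 CPM in control libraries, with 0 called in these 4 lists. Estimates were below 0 for 6 of 6 epithelial genes (median log2 fold change -0.81), 5 of 6 muscle genes (-0.65) and 8 of 8 erythroid genes (-0.24). They were below 0 for 4 of 5 tested macrophage genes (-0.09) and 2 of 4 tested endothelial genes (-0.15), beside 51.4% of all tested genes. The muscle gene Myog was lower without overlap (-1.58, edgeR adjusted p = 0.0546).

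The share of autophagy genes called was below that of all genes at the edgeR adjusted p, on a count of 1. It was close to that of all genes by DESeq2 and in the authors' deposited table. Of the 43 tested genes 1, Map1lc3b, was called lower and 0 were called higher in p53_activated embryos at an edgeR adjusted p of 0.05. Bnip3l (0.0529), Gabarap (0.0635) and Gabarapl1 (0.067) lay just above that threshold. Over all 14528 tested genes 4.49% were called higher and 2.74% lower, 7.23% in either direction, against 2.33% of the autophagy genes. DESeq2 and limma-voom also called 0 autophagy genes higher, beside 6.86% of all genes called higher by DESeq2. The authors' deposited table gives an adjusted p under 0.05 with a positive sign to 0 of them, beside 6.34% of all its genes with an adjusted p. In either direction DESeq2 called 11.6% of the autophagy genes and 11.8% of all genes, and 11.6% of the autophagy genes and 10.8% of all passed in the authors' deposited table. At an unadjusted p under 0.05 edgeR had 3 higher (6.98%) and 7 lower (16.3%), beside 12% and 10.6% of all tested genes, or 23.3% of the autophagy genes and 22.6% of all in either direction. The median log2 fold change was -0.01 over the autophagy genes and -0.01 over all tested genes, with 22 of the 43 below 0. For 24 of the 43 genes (55.8%) the whole 95% interval of the fold change lay within 1.5-fold in either direction, as it did for 42.2% of all tested genes. For 34 (79.1%) it lay within 2-fold, beside 68.5% of all tested genes.

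**Figure D1:**
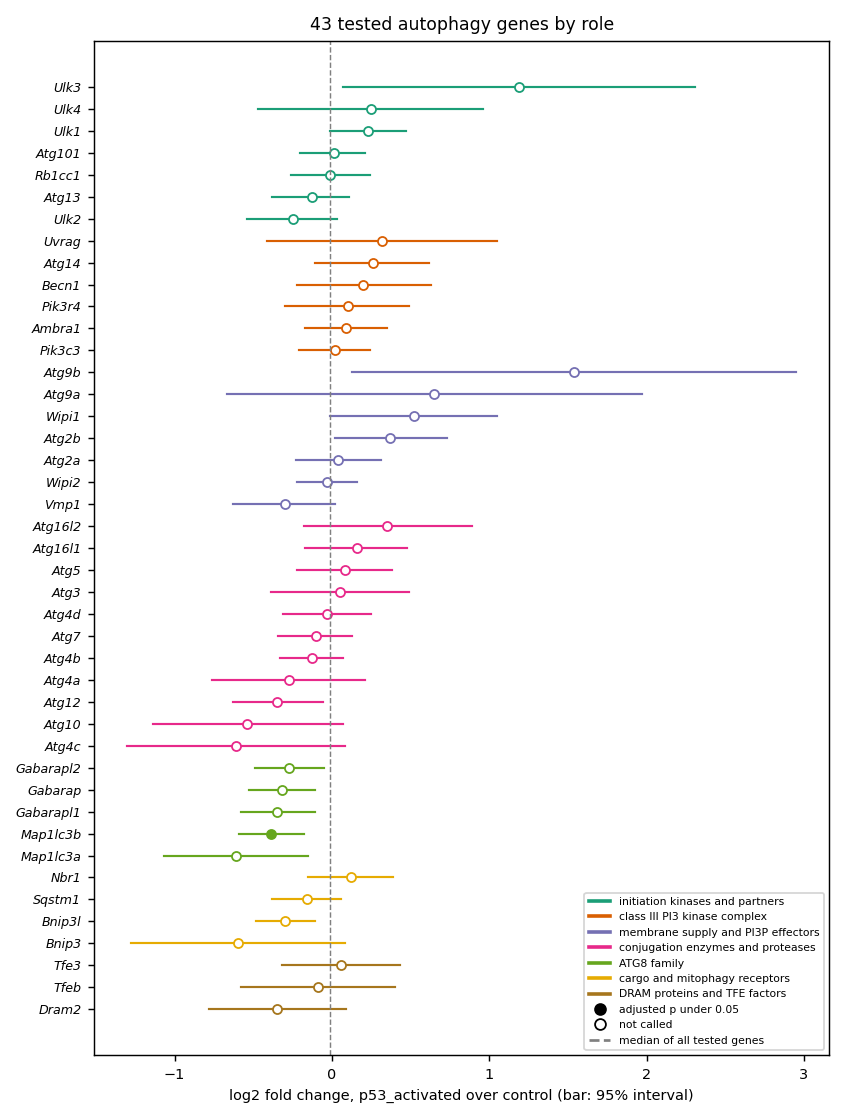
Log2 fold change of p53_activated over control for the 43 tested autophagy genes (x axis), grouped by role and named on the y axis. Points are edgeR estimates, bars 95% intervals, filled points adjusted p under 0.05, and the dashed line is the median of all tested genes. All 5 ATG8 genes lie below 0, Map1lc3b is the filled point, and the longest bars belong to Atg9b, Atg9a and Ulk3, which had few counts.

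The sequences before the transcription starts of 2 genes are shown because Map1lc3b was the gene that passed the test and Dram1 is the autophagy gene best known as a p53 target. RefSeq promoter windows on GRCm38.p6, from 250 bases before to 50 after each start, were found for 37 of the 44 genes. The GC box GGGCGG, searched on both strands, was in 25 of the 37 (67.6%) and in 38.2% of the 27025 genes with a window. Those 27025 genes were not limited to the 14528 genes with enough counts to be tested. The sets are therefore unlike, here and for the motifs below. Capitals mark the GC box, on either strand, in the 250 bases before the RefSeq start. GENCODE starts both genes further upstream: the end of the Map1lc3b window, with its GC box, and the whole Dram1 window lie inside the GENCODE genes (chr8:121590361-121598760 and chr10:88322804-88379080).
Map1lc3b, chr8:121590188-121590437, plus strand: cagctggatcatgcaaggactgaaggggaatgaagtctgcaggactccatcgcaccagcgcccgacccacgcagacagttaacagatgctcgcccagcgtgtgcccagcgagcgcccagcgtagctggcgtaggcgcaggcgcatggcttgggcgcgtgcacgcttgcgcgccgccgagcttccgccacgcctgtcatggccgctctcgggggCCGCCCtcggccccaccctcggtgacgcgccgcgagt
Dram1, chr10:88357076-88357325, minus strand: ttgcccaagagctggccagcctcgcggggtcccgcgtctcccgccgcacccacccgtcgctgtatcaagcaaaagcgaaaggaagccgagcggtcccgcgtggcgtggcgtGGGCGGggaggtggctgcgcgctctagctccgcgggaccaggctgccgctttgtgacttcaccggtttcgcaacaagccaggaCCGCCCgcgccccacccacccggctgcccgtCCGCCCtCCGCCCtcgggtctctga

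A p53 half-site, the consensus decamer on either strand, was found in the windows of Vmp1 and Atg4a, that is in 5.4% of the 37 autophagy genes and in 9.55% of all genes with a window. A pair of half-sites with a spacer of up to 13 bases was in 0 of the 37 and in 0.07% of all genes. The E-box CACGTG, the core of the sequence bound by Tfeb and Tfe3, was in Atg3, Atg5, Atg7, Atg14 and Bnip3, 13.5% of the 37 and 8.09% of all genes. None of these 7 genes passed the test. The Vmp1 half-site and an Atg3 E-box are given in capitals with their flanks.
Vmp1, chr11:86684006-86684049, minus strand: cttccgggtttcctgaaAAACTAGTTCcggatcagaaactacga
Atg3, chr16:45158718-45158757, plus strand: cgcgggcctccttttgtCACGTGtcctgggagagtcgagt

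The ATG8 proteins are ubiquitin-like proteins that are fixed to the autophagosome membrane. Their 5 genes all had estimates below 0, between -0.61 and -0.27 on the log2 scale, and below 0 in all 24 alternatives. Of the 5 genes 1 passed the edgeR test, beside 7.23% of all tested genes. Map1lc3b, which encodes LC3B, lies on chromosome 8 from 121590361 to 121598760 (GRCm38). It was at 75.6, 61.3, 67.3, 60.3 and 60.1 CPM in p53_activated embryos and at 78.0, 93.5, 80.9, 90.7 and 81.1 CPM in control embryos. Every p53_activated embryo lay below every control embryo, with p53_activated replicate 1 (75.6) and control replicate 1 (78.0) close to each other. The log2 fold change was -0.39 ± 0.09 (95% interval -0.59 to -0.18, edgeR adjusted p = 0.0225). The call was lost without p53_activated replicate 2 (adjusted p = 0.0576) or 5 (0.0657), without control replicate 2 (0.0686) or 4 (0.0621), and with the replicate number as a block (0.0628).

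Gabarap (ENSMUSG00000018567), which acts late in autophagosome closure, had 313, 311, 292, 288 and 303 CPM in p53_activated embryos, against 410, 362, 287, 415 and 402 CPM in control embryos. Control replicate 3 lay below every p53_activated embryo and the other 4 control embryos above all of them. The log2 fold change was -0.32 ± 0.10 (edgeR adjusted p = 0.0635), and without control replicate 3 it was -0.39 (adjusted p = 0.00958). Gabarapl1, a close relative, averaged 33.6 ± 2.05 CPM in p53_activated and 42.7 ± 5.06 CPM in control embryos (-0.35 ± 0.11, adjusted p = 0.067). It shares 28.3% of its exon length with a transcript on the other strand, so its count is uncertain. Gabarapl2 averaged 48.1 ± 3.99 CPM in p53_activated and 58.0 ± 6.74 CPM in control embryos (-0.27 ± 0.10, adjusted p = 0.136).

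Map1lc3a, which encodes LC3A, was at 135, 165, 145, 127 and 160 CPM in p53_activated embryos and at 360, 255, 149, 181 and 173 CPM in control embryos. Control replicates 1 and 2 were the high ones, and control replicate 3 lay within the p53_activated range. The log2 fold change of -0.61 ± 0.21 did not pass (edgeR adjusted p = 0.107). Without control replicate 1 it was -0.37 (0.126), and without both control replicates 1 and 2 (an alternative added after seeing the data) -0.20 (0.329). Without control replicate 3 it was -0.72 and passed (0.0393). Control replicates 1 and 2 also had the highest ratios of the embryonic globin Hbb-y to Hbb-bh1, 4.97 and 2.69, beside 1.83 to 2.08 in p53_activated libraries and 1.59 to 1.95 in the other control libraries. A link between these ratios and Map1lc3a was not tested.

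**Figure D2:**
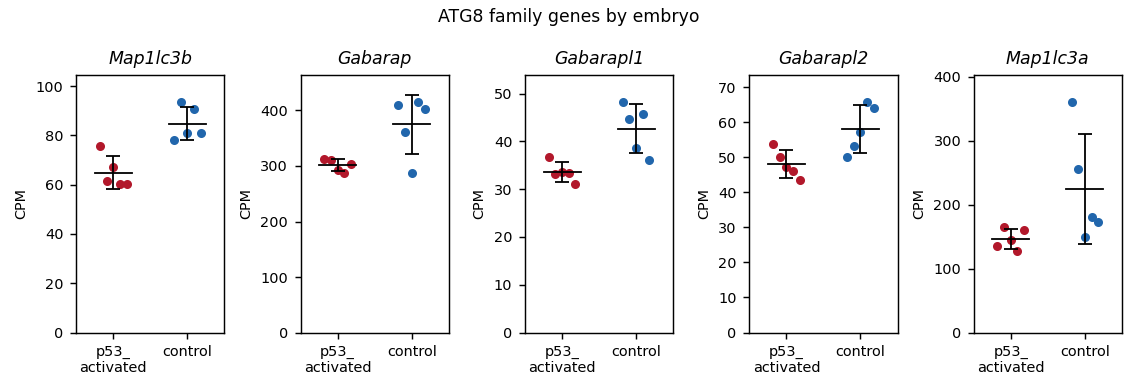
CPM of the 5 ATG8 genes (y axes, from 0) in each p53_activated and each control embryo (points; left and right), with the mean and SD as lines. Map1lc3b has no overlap between the groups, while for Map1lc3a the control SD of 85.7 CPM comes with high values in control replicates 1 and 2.

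DESeq2 run on the same counts called 5 autophagy genes lower, which were Map1lc3b, Map1lc3a, Gabarap, Gabarapl1 and the mitophagy receptor gene Bnip3l, 11.6% of those tested beside 4.91% of all genes. The authors' deposited table has an adjusted p under 0.05 and a negative sign for the same 5 genes, 11.6% beside 4.43% of all genes with an adjusted p in the authors' deposited table. Its header does not state the direction, and for all 1050 genes called in both it had the sign of p53_activated over control. The log2 fold changes hardly differed between the tests: for Gabarap -0.32 by DESeq2 and -0.32 by edgeR, for Bnip3l -0.30 by both.

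Neuronal markers were lower in p53_activated embryos. Summed over 9 genes they ran from 319 to 503 CPM in p53_activated and from 630 to 845 CPM in control libraries. Of the 9, 8 were called lower by edgeR, beside 2.74% of all tested genes, and none was at 0. Melanoblast and glial markers summed to 126 to 200 CPM in p53_activated and 259 to 319 CPM in control libraries, with 4 of 7 called lower. Because neither sum overlapped between the groups, their level and the genotype cannot be told apart here, and in such bulk samples fewer cells of a type and less RNA per cell cannot be told apart either. Control replicate 1, with the highest Map1lc3a, had the lowest neuronal sum of the control libraries (630 CPM). It also had the highest summed ATG8 level, which ran from 554 to 621 CPM in p53_activated and from 612 to 946 CPM in control libraries. The lowest ATG8 sum was in p53_activated replicate 4, with the highest neuronal sum of its group (503 CPM). Other libraries did not follow that order. Control replicate 3 had the lowest ATG8 sum of the control libraries (612 CPM) with a neuronal sum of 690 CPM. Control replicate 4 had the highest neuronal sum (845 CPM) with an ATG8 sum of 798 CPM. A link between the sums was not tested. With the log2 neuronal sum as a covariate (an alternative added after seeing the data) Map1lc3b was at -0.35 and did not pass (edgeR adjusted p = 0.478), and 382 genes were called in all. In that fit Map1lc3a was at -1.44, Gabarap at -0.29, Gabarapl1 at -0.41, Gabarapl2 at -0.12 and Bnip3l at -0.60, and none of them passed.

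Across the whole table, genes with more annotated exon sequence had higher fold changes, and 4 of the 5 ATG8 genes are short. With tested genes put in 5 bins of exon length, the shortest bin, 57 to 2161 bases, had a median log2 fold change of -0.10, and the longest bin, from 7444 bases, one of 0.11. The 5 autophagy genes in the shortest bin were Gabarap, Gabarapl1, Map1lc3a, Atg10 and Atg101, with a median of -0.35. Across genes the Spearman correlation of fold change with exon length was 0.47 over the 43 autophagy genes and 0.21 over 14507 tested genes. These points share the same 10 libraries. With a lowess trend on exon length removed (an alternative added after seeing the data) Gabarap was at -0.20 (adjusted p = 0.255), Gabarapl1 at -0.23 (0.236), Gabarapl2 at -0.17 (0.378) and Map1lc3a at -0.51 (0.19). Map1lc3b, with 7517 bases of annotated exon, was then at -0.46 (edgeR adjusted p = 0.00893).

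**Figure D3:**
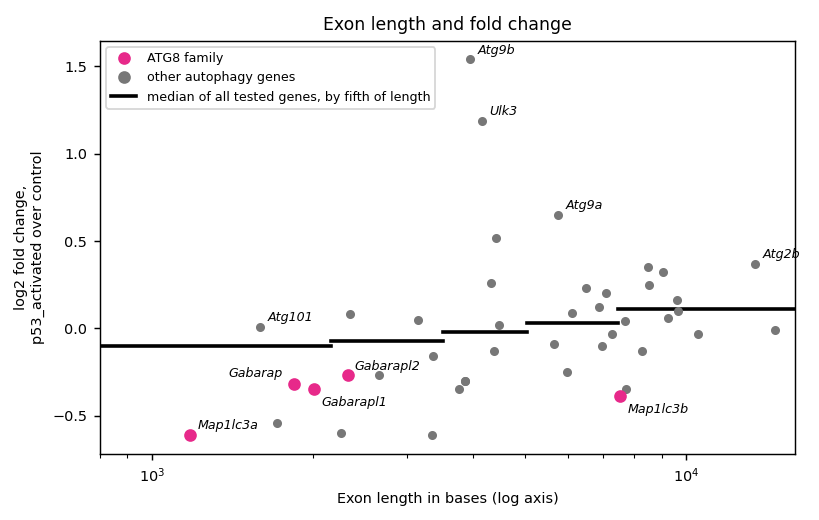
Log2 fold change of p53_activated over control (y axis) against annotated exon length in bases (x axis, log scale) for the 43 autophagy genes. Black lines are medians of all tested genes in each of the 5 bins of length, from -0.10 in the shortest to 0.11 in the longest. Of the 5 ATG8 genes, Map1lc3b has the longest exon sequence and the other 4 lie at the short end.

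Levels between genes were compared per length, as TPM, counts divided by annotated exon length and scaled to the same sum in each library. The ATG8 genes Gabarap (374 ± 19.9 TPM in p53_activated and 469 ± 56.0 TPM in control embryos) and Map1lc3a (283 ± 22.9 TPM in p53_activated and 436 ± 160 TPM in control embryos) stood at the top with Atg101 (317 ± 31.3 TPM in p53_activated and 321 ± 20.2 TPM in control embryos). These 3 were the genes above 100 TPM in either group. The order of Gabarap and Map1lc3a was not the same in every library: Gabarap was the higher in all 5 p53_activated embryos and in 3 control embryos, and Map1lc3a in control replicates 1 and 2. Below them Bnip3l (71.0 ± 4.78 TPM in p53_activated and 88.0 ± 7.56 TPM in control embryos) stood apart from Gabarapl2 (47.4 ± 4.55 TPM in p53_activated and 57.6 ± 6.33 TPM in control embryos). Map1lc3b had the lowest level of the family in all 10 libraries, at 19.8 ± 2.15 TPM in p53_activated and 26.1 ± 2.64 TPM in control embryos, a value that rests on its long annotated exons. In each group 19 of the 44 genes were above 10 TPM and 39 above 1 TPM.

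**Figure D4:**
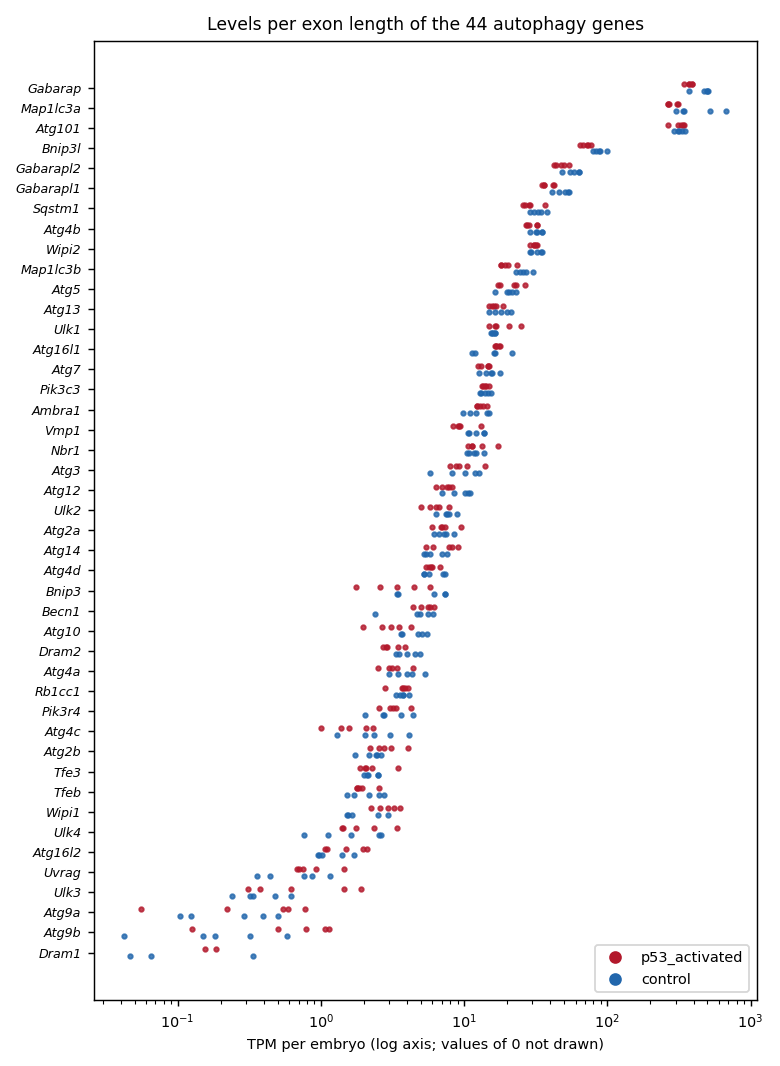
TPM (x axis, log scale) of the 44 autophagy genes (y axis, ordered by control mean), with 1 point per embryo, p53_activated drawn above control for each gene and values of 0 not drawn. Gabarap, Map1lc3a and Atg101 lie above 100 TPM in every embryo, and Dram1, Atg9b, Atg9a and Ulk3 at the bottom.

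Ulk1 or Ulk2 forms the kinase complex that starts autophagy together with Atg13, Rb1cc1 and Atg101, and the related kinases Ulk3 and Ulk4 were grouped with it here. Of these 7 genes 0 passed the edgeR test or DESeq2, and 1, Ulk3, had an unadjusted p under 0.05. Over all genes edgeR called 7.23% and DESeq2 11.8%, and 22.6% had an unadjusted edgeR p under 0.05. At such shares 0 calls among 7 genes are not a result about the group. Ulk1, the kinase that receives signals from mTORC1 and AMPK, was at 46.8, 43.2, 49.0, 64.7 and 59.0 CPM in p53_activated embryos and at 46.2, 43.9, 45.0, 45.5 and 43.7 CPM in control embryos. p53_activated replicates 4 and 5 were high and the other 3 lay at or near the control values (log2 fold change 0.23 ± 0.11, edgeR adjusted p = 0.25). Its paralog Ulk2 had an estimate of the other sign (-0.25 ± 0.14, adjusted p = 0.282). Atg101, which stabilises the Atg13 subunit, averaged 222 ± 30.8 CPM in p53_activated and 221 ± 9.44 CPM in control embryos (95% interval -0.20 to 0.21). The scaffold gene Rb1cc1 (-0.01) and Atg13 (-0.13) also had intervals within 1.5-fold. Ulk3 averaged 1.67 ± 1.27 CPM in p53_activated and 0.717 ± 0.263 CPM in control embryos (1.19 ± 0.53, adjusted p = 0.194), with p53_activated replicates 4 and 5 at 2.40 and 3.54 CPM and the other 3 between 0.578 and 1.10 CPM. The estimate was 0.75 without p53_activated replicate 5 and 0.14 without both p53_activated replicates 4 and 5 (an alternative added after seeing the data).

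The class III PI3 kinase complex makes the lipid PI3P. Of 6 genes grouped here with it, 0 passed by edgeR or DESeq2 or had an unadjusted p under 0.05. Beside 7.23% (edgeR), 11.8% (DESeq2) and 22.6% (unadjusted edgeR p) of all genes, 0 among 6 is not a result about the group. All 6 had estimates above 0, from 0.02 to 0.32. The sign did not hold in every alternative for 4 of them: Pik3c3 was at -0.02 with upper quartile scaling, Pik3r4 at -0.01 without control replicate 1, Becn1 at -0.01 without control replicates 1 and 2, and Ambra1 at -0.26 with the neuronal covariate. Pik3c3, the catalytic subunit, had 27.4 ± 0.58 CPM in p53_activated and 27.2 ± 2.45 CPM in control embryos (95% interval -0.21 to 0.24). Atg14, the subunit that directs the complex to autophagy, had the smallest p of the group (0.26 ± 0.17, edgeR adjusted p = 0.409). Becn1, the Beclin 1 gene (0.20 ± 0.20, adjusted p = 0.605), shares 43.9% of its exon length with Cntd1 on the other strand, and Uvrag 17.6% with an antisense transcript, so their counts are uncertain.

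Genes of membrane supply and PI3P binding gave 0 calls among 7 by edgeR and DESeq2, beside 7.23% and 11.8% of all genes. At an unadjusted edgeR p under 0.05 there were 2, Atg2b and Atg9b, beside 22.6% of all tested genes. Neither count among 7 genes is a result about the group. Wipi2, the PI3P reader that recruits the conjugation machinery, was at 142 ± 13.8 CPM in p53_activated and 146 ± 9.33 CPM in control embryos (95% interval -0.22 to 0.16). Atg2b, a lipid transfer protein, averaged 17.1 ± 3.51 CPM in p53_activated and 13.2 ± 2.07 CPM in control embryos (0.37 ± 0.17, edgeR adjusted p = 0.196). Vmp1, a protein of the endoplasmic reticulum that moves lipids between membrane leaflets, had an estimate of -0.30 ± 0.15 (adjusted p = 0.259). Atg9a and Atg9b, which encode scramblases of the vesicles that seed the membrane, were low. Atg9a averaged 1.09 ± 0.70 CPM in p53_activated and 0.71 ± 0.441 CPM in control embryos, and Atg9b 1.27 ± 0.727 CPM in p53_activated and 0.431 ± 0.338 CPM in control embryos. The Atg9b estimate of 1.54 has a 95% interval of 0.13 to 2.95 (adjusted p = 0.18). Atg9a shares 32.6% of its exon length with other genes, 1 of them on its own strand, so its low count may not give its level.

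The conjugation enzymes and proteases process ATG8 proteins and join them to lipid. Their 11 genes gave 0 calls by edgeR and DESeq2, beside 7.23% and 11.8% of all genes. At an unadjusted edgeR p under 0.05 there was 1, Atg12, beside 22.6% of all tested genes. Counts among 11 genes are too small to be a result about the group. Atg12, the ubiquitin-like partner of Atg5, was at 27.2, 22.3, 27.2, 24.2 and 23.9 CPM in p53_activated embryos and at 24.4, 27.2, 35.6, 35.2 and 36.0 CPM in control embryos. Control replicates 1 and 2 lay at or within the p53_activated range and the other 3 above it (-0.35 ± 0.13, edgeR adjusted p = 0.133). Without both of those libraries (an alternative added after seeing the data) the estimate was -0.51 and passed (0.0224). The activating enzyme Atg7 (-0.10), Atg5 (0.08) and the protease Atg4b (-0.13) had 95% intervals within 1.5-fold, and Atg4b was the highest of the group at 107 ± 11.5 CPM in p53_activated and 116 ± 10.2 CPM in control embryos. Atg10, the conjugating enzyme for Atg12, and the protease Atg4c were low and imprecise (-0.54 ± 0.28 and -0.61 ± 0.33). A copy on chromosome 3 matches 96.0% of the Atg4a transcript in stretches of at least 95% and up to 99.3% identity, so reads may be split or lost.

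Of 4 cargo and mitophagy receptors 0 were called by edgeR and 1 by DESeq2, beside 7.23% and 11.8% of all genes. With 4 genes neither count is a result about the group. Bnip3l, a receptor for mitochondria also known as Nix, was at 128, 128, 115, 111 and 116 CPM in p53_activated embryos and at 173, 140, 144, 144 and 134 CPM in control embryos, without overlap (-0.30 ± 0.09, edgeR adjusted p = 0.0529). A pseudogene matches 34.7% of its transcript and had 51 counts over all libraries, against 23499 for Bnip3l. Map1lc3b and Bnip3l were the 2 autophagy genes (4.65%) without overlap in the lower direction, as 3.52% of all tested genes had, and 0 were without overlap in the higher direction, beside 4.54% of all tested genes. Sqstm1, the p62 receptor gene, averaged 42.8 ± 4.31 CPM in p53_activated and 47.7 ± 3.65 CPM in control embryos (-0.16 ± 0.10, adjusted p = 0.401), and 17.3% of its exon length is shared with Mrnip on the other strand. Bnip3 was low (3.53 ± 1.42 CPM in p53_activated and 5.41 ± 1.87 CPM in control embryos) and has copies of up to 98.9% identity elsewhere, so its count is uncertain.

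Dram1, a lysosomal membrane protein gene and p53 target in human cells, had 7 counts over the 5 p53_activated libraries and 11 over the 5 control libraries, too few to be tested. Control replicate 1 held the highest value (0.455 CPM), and no p53_activated library exceeded 0.262 CPM. Its relative Dram2 averaged 5.20 ± 0.871 CPM in p53_activated and 6.59 ± 1.11 CPM in control embryos (-0.35 ± 0.20, edgeR adjusted p = 0.343). Tfeb and Tfe3, transcription factors of lysosome and autophagy genes, had estimates of -0.09 ± 0.23 and 0.06 ± 0.17 (adjusted p = 0.866 and 0.891), and RNA levels do not measure the activity of these factors.

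Upstream of autophagy lie mTORC1, the kinase complex that restrains it, and the kinase AMPK. The 29 tested genes of mTORC1, AMPK and their regulators gave 3 higher (10.3%) and 2 lower (6.9%) calls. Over all tested genes the shares were 4.49% higher and 2.74% lower. The median log2 fold change of these 29 was -0.06. Sesn2, a p53 target whose product restrains mTORC1, was at 32.6, 28.0, 36.5, 36.6 and 33.4 CPM in p53_activated embryos and at 5.17, 9.75, 8.6, 10.2 and 9.03 CPM in control embryos. The groups were far apart (1.97 ± 0.17, edgeR adjusted p = 1.51e-06). Its paralogs Sesn1 (-0.30 ± 0.15, adjusted p = 0.259) and Sesn3 (-0.19 ± 0.14, 0.443) had estimates of the other sign and did not pass. Ddit4, which restrains mTORC1 through the TSC complex, averaged 33.8 ± 6.59 CPM in p53_activated and 16.4 ± 2.81 CPM in control embryos (1.05 ± 0.15, adjusted p = 0.000492). The Sesn2 and Ddit4 calls held without each library in turn. Mtor itself (0.66 ± 0.19, adjusted p = 0.0436), the Rag GTPase gene Rragc (-0.38 ± 0.10, 0.0302) and the Ragulator gene Lamtor5 (-0.47 ± 0.13, 0.0433) also passed. Mtor lost its call without any 1 library except p53_activated replicates 1 and 3 and control replicate 2, Rragc except p53_activated replicate 4 and control replicate 3, and Lamtor5 except p53_activated replicate 1 and control replicate 1.

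Of 32 tested autophagy factors outside the 44 genes, 2 were called higher (6.25%) and 1 lower (3.12%), near the 4.49% and 2.74% of all tested genes, with a median of -0.06. Trp53inp1, a p53 target whose product binds ATG8 proteins, was at 34.3, 33.3, 32.5, 29.4 and 30.2 CPM in p53_activated embryos and at 6.65, 12.7, 9.84, 10.7 and 9.83 CPM in control embryos (1.69 ± 0.16, edgeR adjusted p = 2.88e-06). Vps41, a subunit of the complex that tethers autophagosomes to lysosomes, averaged 20.4 ± 2.36 CPM in p53_activated and 13.9 ± 1.77 CPM in control embryos (0.56 ± 0.14, adjusted p = 0.0235), a call lost without p53_activated replicate 2 (0.0635) or 5 (0.0538) or control replicate 4 (0.0543). Pink1, the kinase that marks damaged mitochondria, fell to 69.1 ± 5.13 CPM in p53_activated embryos, against 98.1 ± 12.6 CPM in control embryos (-0.51 ± 0.10, adjusted p = 0.00547). With the neuronal sum as a covariate Pink1 was at -0.73 and did not pass (edgeR adjusted p = 0.11), and Trp53inp1 (0.0325), Sesn2 (0.00293) and Ddit4 (0.0337) passed. That sum does not overlap between the groups, so this fit cannot tell it apart from the genotype for any of these genes.

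Of 32 tested lysosome genes 3 were called higher (9.38%) and 4 lower (12.5%), beside 4.49% and 2.74% of all tested genes, and 25 were not called. Their median log2 fold change was -0.14. Ctsf, a lysosomal protease gene, averaged 62.8 ± 8.68 CPM in p53_activated and 44.3 ± 4.90 CPM in control embryos (0.50 ± 0.12, edgeR adjusted p = 0.0161). Scarb2, a lysosomal membrane protein gene, averaged 45.7 ± 2.84 CPM in p53_activated and 33.8 ± 3.32 CPM in control embryos (0.44 ± 0.10, adjusted p = 0.0186). The proton pump subunit gene Atp6v1b2 fell to 35.5 ± 2.42 CPM in p53_activated embryos, against 47.5 ± 1.76 CPM in control embryos (-0.42 ± 0.09, adjusted p = 0.0139). These 3 calls held without each library in turn. With the neuronal sum as a covariate Ctsf was at -0.08 (adjusted p = 0.899), Scarb2 at 0.66 (0.173) and Atp6v1b2 at -0.31 (0.504), a fit that cannot tell that sum apart from the genotype. Cd63 (-0.42, adjusted p = 0.0243), a second pump subunit gene Atp6v0d1 (-0.30, 0.0377), the cholesterol transporter gene Npc1 (1.21, 0.0417) and Ostm1 (-0.66, 0.0451) passed as well. Ostm1, with the largest adjusted p of the called lysosome genes, was not followed through the alternatives. Npc1 was at 10.6 and 6.38 CPM in p53_activated replicates 4 and 5 and between 2.95 and 3.65 CPM in the other 3, against 1.99 to 2.70 CPM in control embryos, and its call was lost without any 1 library other than p53_activated replicates 1, 2 and 3. Cd63 lost its call without p53_activated replicates 2, 3 or 5 or control replicates 2 or 4 (up to 0.0741), and Atp6v0d1 without any 1 library except p53_activated replicate 1 and control replicate 3 (up to 0.0929).

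**Figure D5:**
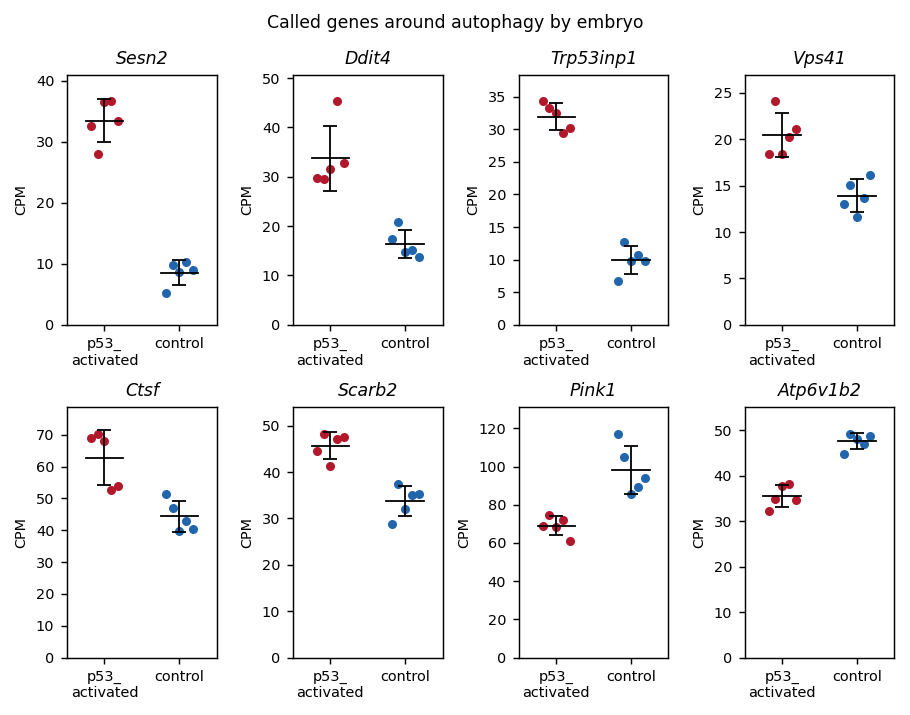
CPM (y axes, from 0) of 8 called genes around the autophagy machinery in each p53_activated and each control embryo (points; left and right), with the mean and SD as lines. Sesn2, Ddit4, Trp53inp1, Vps41, Ctsf and Scarb2 are higher in p53_activated embryos, and Pink1 and Atp6v1b2 lower, with no overlap between the groups in any of the 8 panels.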

How the data were processed

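Polyadenylated RNA from GFP-positive cells sorted from single embryos was sequenced, per the labels' protocols. The authors deposited a table of raw counts per Ensembl gene, and HISAT2 2.0.4, SAMtools 1.3.1, HTSeq 0.6.1, DESeq2 1.14.1 and GRCm38 are named in the submitters' processing notes. What each tool did, whether reads were counted by strand, and with which annotation is not given in the sources used here. The authors also deposited a comparison table that holds, per the file headers, a mean normalized count (a signal averaged over libraries), a log2 fold change with its error, a test score and p-values. Its gene symbols named the counts.

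Counts were tested with edgeR 4.0.16 in R 4.3.3 (TMM scaling, filterByExpr at its settings of 10 counts and 15 in total, robust quasi-likelihood F-test, Benjamini-Hochberg adjustment over 14528 genes, threshold 0.05). The common biological coefficient of variation was 25.5%. Each 95% interval is the log2 fold change and its standard error multiplied by the t quantile. TPM used the summed exon length of GENCODE M21, and near-identical copies were sought with blastn 2.17.0 (at least 95% identity over at least 100 bases). Each embryo is 1 replicate. The code was tested on simulated data.

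Genes named were those called, the smallest p and the highest TPM of each role group, genes under 1 CPM, the 5 ATG8 genes, and up to 3 called genes per direction of each related list. Other genes named were chosen after their values were seen, and the autophagy genes and all lists were chosen with earlier results of these data known. Alternatives were other scalings and filters, DESeq2 1.42.0, limma-voom (limma 3.58.1), non-robust dispersions, embryo sex, a replicate block, a threshold of 0.01 and leaving out each library. Leaving out 2 libraries at a time, removing the exon length trend and the neuronal covariate were added after seeing the data.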

Additional observations from a re-analysis of the deposited data

Results flagged for a closer look

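In 6 of 88 sets of 5 embryos (44 genes in each of the 2 groups) 1 embryo stood apart from the other 4 by Dixon's test, whose critical value for 5 samples is 0.71. Chance gives about 1 in 20. Bnip3l was at 173 CPM in control replicate 1, above the other control embryos. Dram1 was at 0.455 CPM in that same embryo. Tfe3 was high in p53_activated replicate 4 (12.7 CPM), Tfeb in p53_activated replicate 2 (6.51 CPM) and Atg3 in p53_activated replicate 1 (19.0 CPM). Rb1cc1 was low in p53_activated replicate 3 (19.1 CPM).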

How the results depend on the processing

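Of 24 alternatives, 0 called an autophagy gene higher by edgeR, DESeq2 or limma-voom. The number called lower, 1 as reported, was 4 with upper quartile scaling, 3 with library totals, 5 with DESeq2, 0 with the replicate block, 0 at a threshold of 0.01 and 0 to 3 when single libraries were left out. Among choices made after seeing the data it was 2 without control replicates 1 and 2, 0 without p53_activated replicates 4 and 5 and 0 with the neuronal covariate. The count over all genes, 1050, was 1676 with DESeq2, 375 at 0.01, 636 to 1025 with single libraries left out, 656 without control replicates 1 and 2 and 382 with the neuronal covariate. The neuronal sum does not overlap between the groups, so that covariate and the genotype cannot be told apart, and the lower counts with it do not separate them. Upper quartile scaling moved the share of calls that were higher to 51.7%, against 62.1% as reported.

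Of 43 autophagy genes 19 changed sign in at least 1 alternative, 6 of them only with the neuronal covariate, and the other 13 had reported estimates within 0.2 of 0. Pik3c3 was at -0.02 with upper quartile scaling, 0 with library totals, -0.15 with the neuronal covariate and -0.02 to 0.07 with single libraries left out. Atg101 was at -0.03 with upper quartile scaling, -0.02 with library totals, -0.01 with limma-voom, -0.03 with embryo sex, -0.01 with the replicate block, -0.55 with the neuronal covariate and -0.03 to 0.09 with single libraries left out. Wipi2 was at 0.02 without control replicates 1 and 2, 0.05 without p53_activated replicates 4 and 5 and -0.06 to 0.02 with single libraries left out. With the neuronal covariate Atg9b was at -0.72 and Ctsf at -0.08. The cause was not tested.

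Correlations of same-numbered deviations were -0.09, 0.02, 0.14, 0.05 and 0.06. The best-matching control for each p53_activated replicate gave 0.17, 0.13, 0.14, 0.09 and 0.11, and only for replicate 3 was it the same number. All these values are low, so they do not show whether embryos were paired by litter. The replicate block gave 804 calls over all genes. Precision was lowest for genes under 2 CPM, where Ulk3, Atg9a and Atg9b had the widest intervals.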
